A study of Mus musculus with 6 samples.

Results

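Disallowed genes are genes that most tissues express and that the mature beta cell keeps low. The 10 described here lie outside glycolysis and lactate transport, namely C1qbp, Oat, Acot7, Mgst1, Cxcl12, Smad3, Maf, Nfib, Lmo4 and Zfp36l1. The set is not complete. Further disallowed genes outside glycolysis, such as Igfbp4, Arap2 and Tgm2, are among 18 others given near the end, and some of them changed. These 10 are called the members. The members were matched by symbol in the count files, where all 10 were found among 23284 genes, and all 10 had enough counts to be tested. They were followed in islets of mice whose beta cells lack Neurod1, a transcription factor that endocrine cells and neurons use to differentiate.

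The knockout group was Neurod1-floxed/floxed; Rip-Cre+, in which both Neurod1 alleles are flanked by loxP sites and the rat insulin promoter drives the Cre recombinase that removes them. The control group was Neurod1-floxed/floxed without Cre, so the deletion and any effect of Cre itself cannot be told apart. All mice were 12 weeks old, and their strain is given in the labels as C56BL/J. Each group had 3 bulk RNA-seq libraries of purified, hand-picked islets; the knockout libraries are numbered 4, 5 and 6, the control libraries 7, 10 and 16. Nothing in the labels ties a library to a separate animal, and p-values here measure only how these libraries vary.

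Repression of disallowed genes is regarded as part of what makes a beta cell mature. If they were active, a beta cell could burn fuels, answer growth factors or release signals in ways that would uncouple insulin secretion from glucose. Their products act at many levels, from mitochondrial and lipid enzymes to a secreted chemokine, a signal transducer, transcription factors and an mRNA decay factor. Most of them are active in other cells of the islet and its surroundings, and in libraries of whole islets a change in the RNA per cell cannot be told apart from a change in the share of cells that make it.

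Total counts per library were 12206393 to 16473159 in the knockout and 14424767 to 20412435 in the control. Values are given as counts per 1e+06 counts (CPM) after scaling the libraries by TMM factors, which correct for differences in RNA composition. Neurod1 was at 28.4, 29.8 and 31.3 CPM in knockout libraries 4, 5 and 6, against 198, 177 and 141 CPM in control libraries 7, 10 and 16, so every library matched its label. The 10 beta cell markers sum to 132415 to 149043 CPM in the knockout and 174707 to 192972 CPM in the control, with none at 0 in any library, so the labelled tissue is present in each. Of these 10, 3 were higher (Pdx1, Nkx6-1 and Slc2a2), 3 were lower (Ins1, G6pc2 and Slc30a8) and 4 did not pass; with 1 library left out 0 to 3 were higher (0 for control library 10 or 16, 1 for knockout library 5 or 6) and 3 lower.

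Of the 10 disallowed genes, C1qbp rose, Cxcl12 fell and 8 did not pass at an adjusted p under 0.05 in edgeR's quasi-likelihood test over 14770 genes. Over all genes tested, 11.8% were called higher and 12.6% lower, and 24.4% were called in either direction, so 1 of 10 in each direction is close to the share among genes at large. The median log2 fold change (knockout over control) was -0.08 for the 10 members and -0.0075 for all genes tested, and the median size of the change regardless of sign was 0.25 for the members and 0.24 for all genes. Log2 fold changes were positive for 4 members and negative for 6. In 3 of the 10 (C1qbp, Cxcl12 and Nfib) the knockout and control libraries did not overlap, where 42.0% of all genes tested show such a separation.

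**Figure D1:**
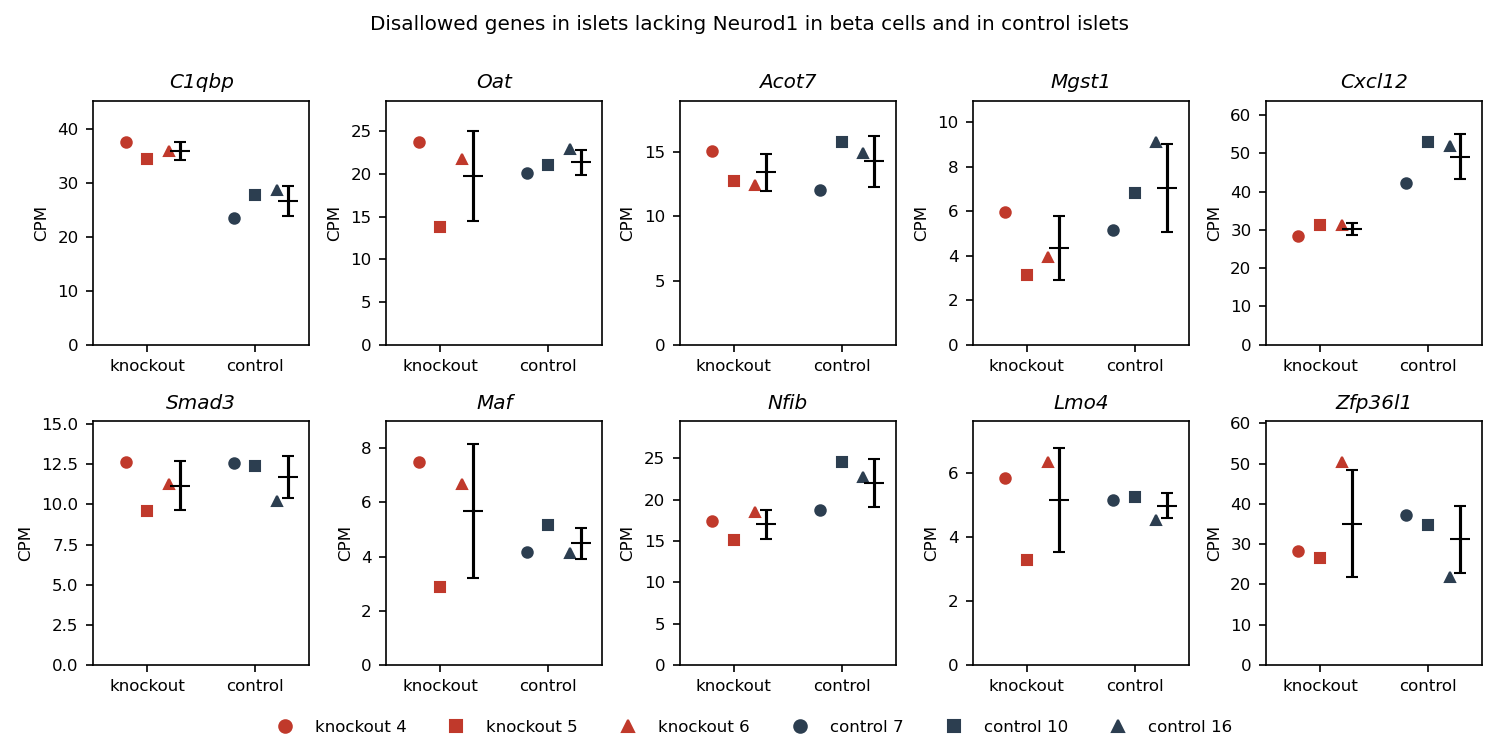
CPM of each of the 10 disallowed genes in the 3 knockout libraries (red, left) and the 3 control libraries (dark, right), with the mean and SD of each group in black and an axis from 0 for each gene. The knockout points of C1qbp all lie above, and those of Cxcl12 all below, the control points, while knockout library 5 (square) lies below the other 2 knockout libraries for Oat, Maf and Lmo4.

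The promoters of the only members that passed, C1qbp and Cxcl12, are shown because Neurod1 binds DNA at E-boxes, short motifs with the letters CANNTG, as a dimer with a ubiquitous partner. Each is the 250 bases before the gene's start, from RefSeq on build GRCm38.p6 (the counts were made on mm9), written 5′ to 3′ along the gene's strand, with E-boxes in capitals. C1qbp is at chr11:70983027-70983276 on the minus strand and Cxcl12 at chr6:117168285-117168534 on the plus strand.

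C1qbp: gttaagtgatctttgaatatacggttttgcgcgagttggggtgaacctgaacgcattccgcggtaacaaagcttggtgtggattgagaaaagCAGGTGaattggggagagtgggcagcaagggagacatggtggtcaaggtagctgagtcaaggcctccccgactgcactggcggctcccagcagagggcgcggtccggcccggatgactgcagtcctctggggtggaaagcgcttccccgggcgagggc

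Cxcl12: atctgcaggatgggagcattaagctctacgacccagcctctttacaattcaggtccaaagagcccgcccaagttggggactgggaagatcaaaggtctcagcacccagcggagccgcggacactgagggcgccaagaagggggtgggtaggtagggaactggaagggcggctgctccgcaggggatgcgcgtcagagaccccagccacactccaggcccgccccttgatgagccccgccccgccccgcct

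The C1qbp stretch holds 1 E-box, CAGGTG, whose first base lies at position -158 from the start. The Cxcl12 stretch has no match to CANNTG and so no capitals. CANNTG reads the same on both strands and occurs in 66.2% of 32851 RefSeq promoter windows of this length. The table held 11 windows for 8 of the 10 members, the entries for Maf and Nfib being missing. For 9 of the 11, bases just after the start were found in a GENCODE M21 transcript of the gene. For the rest they were not, so their start is less certain. An E-box was in 6 of the 11 windows, the count to set beside that 66.2%. Counted by gene, 5 of the 8 members had an E-box in at least 1 window (C1qbp, Oat, Acot7, Mgst1 and Lmo4). The variant CAGATG, one case of CANNTG, was searched on both strands, was in 0 of the 11 member windows and is in 14.4% of all windows. A match to these letters is a description and not evidence of binding.

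Among the metabolic members, C1qbp, a protein of the mitochondrial matrix that mitochondrial translation requires, was the one that rose. It was at 37.6, 34.4 and 35.8 CPM in knockout libraries 4, 5 and 6, against 23.6, 27.8 and 28.6 CPM in control libraries 7, 10 and 16. The lowest knockout library lay above the highest control library, and the knockout libraries differed among themselves by no more than 1.10-fold. It averaged 36.0 ± 1.64 CPM in knockout islets, against 26.7 ± 2.72 CPM in control islets (SD, n = 3 each). On the log2 scale it rose by 0.43 (SE 0.09, edgeR adjusted p = 0.0114), which is 1.35-fold with a 95% interval from 1.16-fold to 1.57-fold. The authors' deposited table gives a log2 ratio of 0.45 with an adjusted p of 0.0144 for it. Leaving out any 1 library kept the call (log2 0.36 to 0.48, highest adjusted p 0.0364). The call was lost when the edgeR fit held the level of acinar markers (0.26, adjusted p = 0.256) or that of endothelial and stromal markers (0.68, adjusted p = 0.125).

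Other proteins of the matrix gave no common direction with C1qbp. Of 11 tested matrix chaperones and translation factors, Lrpprc, which stabilises mitochondrial mRNAs, fell and 10 did not pass. Lrpprc averaged 62.7 ± 4.20 CPM in knockout islets, against 87.9 ± 2.64 CPM in control islets (SD, n = 3 each; log2 fold change -0.49, SE 0.07, edgeR adjusted p = 0.00181). The median of the 11 was 0.0027, and 12.6% of all genes tested were called lower.

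Oat, the mitochondrial enzyme that moves the amino group of ornithine to alpha-ketoglutarate, did not pass. It was at 23.8, 13.8 and 21.8 CPM in knockout libraries 4, 5 and 6 and at 20.1, 21.0 and 22.9 CPM in control libraries 7, 10 and 16. Knockout library 5 was the lowest of the 6, and the other 2 knockout libraries lay within or just above the control range. The log2 difference was -0.11 (SE 0.19, edgeR adjusted p = 0.717), and its 95% interval runs from 0.687-fold to 1.25-fold. Without knockout library 5 the difference was 0.10 (adjusted p = 0.578).

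Enzymes around Oat in ornithine, proline and glutamate metabolism included several that were lower. Of 12 tested, 5 fell and 7 did not pass, with a median of -0.09, where 12.6% of all genes tested were called lower. Glul, glutamine synthetase, averaged 112 ± 16.6 CPM in knockout islets, against 396 ± 64.6 CPM in control islets (SD, n = 3 each; log2 fold change -1.83, SE 0.15, edgeR adjusted p = 1.27e-04). The proline synthesis enzymes Pycr1 (-0.87, SE 0.17) and Aldh18a1 (-0.64, SE 0.12) fell too, and these 3 passed whichever library was left out. The others that fell, Prodh and Gls2, both missed the threshold when knockout library 4 or 5 or control library 10 was left out. With the acinar level, or with the endothelial and stromal level, as a covariate 1 of the 12 fell (Glul).

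Acot7, a thioesterase that splits long-chain acyl-CoA in the cytosol, was at 15.1, 12.8 and 12.5 CPM in knockout libraries 4, 5 and 6 and at 12.1, 15.8 and 15.0 CPM in control libraries 7, 10 and 16. The groups overlapped almost entirely. The difference on the log2 scale was -0.08 (SE 0.14, edgeR adjusted p = 0.690), with a 95% interval from 0.761-fold to 1.17-fold. Among 9 other thioesterases tested, 0 passed by edgeR, DESeq2 or limma-voom, 2 had an unadjusted p under 0.05 in edgeR, and 1 fell when knockout library 6 was left out. The one with most counts, Acot11, averaged 29.8 ± 4.06 CPM in knockout islets, against 31.2 ± 6.50 CPM in control islets (SD, n = 3 each).

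Mgst1, a membrane-bound glutathione transferase that acts on lipid peroxides, was at 5.96, 3.15 and 3.94 CPM in knockout libraries 4, 5 and 6, against 5.16, 6.82 and 9.13 CPM in control libraries 7, 10 and 16. Knockout library 4 lay above control library 7, so the groups overlapped, and these are 47 to 97 counts in the knockout and 100 to 139 in the control. The fitted log2 difference was -0.68 (SE 0.29), nearly the same size as that of Cxcl12, but with an edgeR adjusted p of 0.121 and a 95% interval from 0.395-fold to 0.983-fold. It passed without knockout library 4 (-0.97, adjusted p = 0.0470) and when the fit held the level of the acinar markers (-1.55, adjusted p = 0.0150). When the fit held the level of the endothelial and stromal markers its sign turned (0.22, adjusted p = 0.881).

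Relatives of Mgst1 moved both ways. Of 10 tested genes of glutathione transfer and of its membrane family, 2 rose, 5 fell and 3 did not pass (median -0.46). The shares over all genes tested were 11.8% higher and 12.6% lower. Gstm1 rose (67.1 ± 7.53 CPM in knockout islets, against 42.0 ± 4.79 CPM in control islets, SD, n = 3 each; 0.68, SE 0.11). Gstz1 (85.0 ± 1.82 CPM in knockout islets, against 135 ± 14.3 CPM in control islets; -0.67, SE 0.08) and Gsto1 (-0.91, SE 0.17) fell. The number that rose was 3 with knockout library 4 left out and 1 with knockout library 6 left out.

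Cxcl12, a secreted chemokine that endothelial and stromal cells make, was the member that fell. It was at 28.4, 31.2 and 31.2 CPM in knockout libraries 4, 5 and 6, against 42.3, 53.1 and 51.9 CPM in control libraries 7, 10 and 16. The knockout libraries lay within 1.10-fold of each other and all below the lowest control library. It averaged 30.3 ± 1.60 CPM in knockout islets, against 49.1 ± 5.87 CPM in control islets (SD, n = 3 each). Its log2 fold change of -0.70 (SE 0.10, edgeR adjusted p = 0.00175) is a fall to 0.617 of the control level, with a 95% interval from 0.527 to 0.722. The authors' deposited table gives a log2 ratio of -0.68 with an adjusted p of 1.44e-05. It passed whichever library was left out (log2 -0.79 to -0.64).

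Markers of cells that make Cxcl12 were lower in the same libraries. The 12 endothelial markers summed to 715 to 844 CPM in the knockout and 1119 to 1129 CPM in the control, and 10 of 12 fell. The 12 stromal markers summed to 700 to 938 CPM in the knockout and 1005 to 1387 CPM in the control, and 4 of 12 fell, a count that was 0 when knockout library 6 or control library 10 was left out, 1 when control library 16 was left out and 7 when control library 7 was left out. No marker of either list was at 0 in any library. With the mean log2 level of both lists as a covariate, Cxcl12 was at -0.49 and did not pass (edgeR adjusted p = 0.283). Over all 14770 genes that fit called 214 higher and 198 lower. That level was 5.31 to 5.62 in the knockout and 5.86 to 6.13 in the control without overlap, so the genotype and this level cannot be told apart in such a fit.

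Acinar markers varied between libraries of the same group. The 16 acinar markers summed to 4785, 13893 and 10144 CPM in knockout libraries 4, 5 and 6 and to 47231, 39722 and 13156 CPM in control libraries 7, 10 and 16, so knockout library 5 and control library 16 were alike. Log2 fold changes were negative for 15 of the 16, with a median of -1.80, and Bhlha15 was at 0.52. Of the 16, 2 fell (Ptf1a and Rbpjl), and 12 fell with control library 16 left out, 1 with any of the 4 libraries knockout 4, knockout 6, control 7 and control 10 left out, 13 without robust estimation, 14 by DESeq2, which also called Bhlha15 higher, and 7 by limma-voom. With their level as a covariate Cxcl12 still fell (-0.74, edgeR adjusted p = 0.0265), and that fit called 872 genes higher and 718 lower. Their mean log2 level was 6.84 to 8.296 in the knockout and 8.298 to 9.91 in the control. These ranges nearly touch without overlap, so this fit cannot cleanly tell genotype from the acinar level either.

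On the receiving side, the receptor Cxcr7 averaged 6.61 ± 0.928 CPM in knockout islets, against 11.5 ± 3.10 CPM in control islets (SD, n = 3 each), a fall on the log2 scale (-0.79, SE 0.21, edgeR adjusted p = 0.0271). That call was lost by limma-voom and when knockout library 5, knockout library 6, control library 10 or control library 16 was left out (highest adjusted p 0.0876). The main receptor Cxcr4 (0.50, SE 0.41) and the protease Dpp4 (-0.20, SE 0.19), which cuts Cxcl12, did not pass.

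Smad3, the transducer that carries signals of TGF-beta and activin receptors to the nucleus, was at 12.7, 9.58 and 11.2 CPM in knockout libraries 4, 5 and 6 and at 12.5, 12.4 and 10.2 CPM in control libraries 7, 10 and 16. The groups overlapped throughout. On the log2 scale the groups differed by -0.07 (SE 0.14, edgeR adjusted p = 0.746), and the 95% interval from 0.759-fold to 1.19-fold limits how large a change can have been missed.

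Several other genes of the TGF-beta pathway were lower. Of 16 other genes tested 5 fell and 11 did not pass, with a median of -0.22 and 14 of 16 negative. Over all genes tested 12.6% were called lower. The receptor gene Tgfbr1 averaged 62.9 ± 0.782 CPM in knockout islets, against 93.4 ± 7.49 CPM in control islets (SD, n = 3 each; -0.57, SE 0.07, edgeR adjusted p = 0.00102). The co-receptor Tgfbr3 (-0.59, SE 0.12) and the Smad corepressor Skil (-0.47, SE 0.07) also fell, and these 3 passed whichever library was left out. The inhibitory Smads Smad6 and Smad7, the others that fell, each missed the threshold for 4 of the 6 libraries left out in turn, both of them for knockout library 5 and control library 7, where 3 genes fell.

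**Figure D2:**
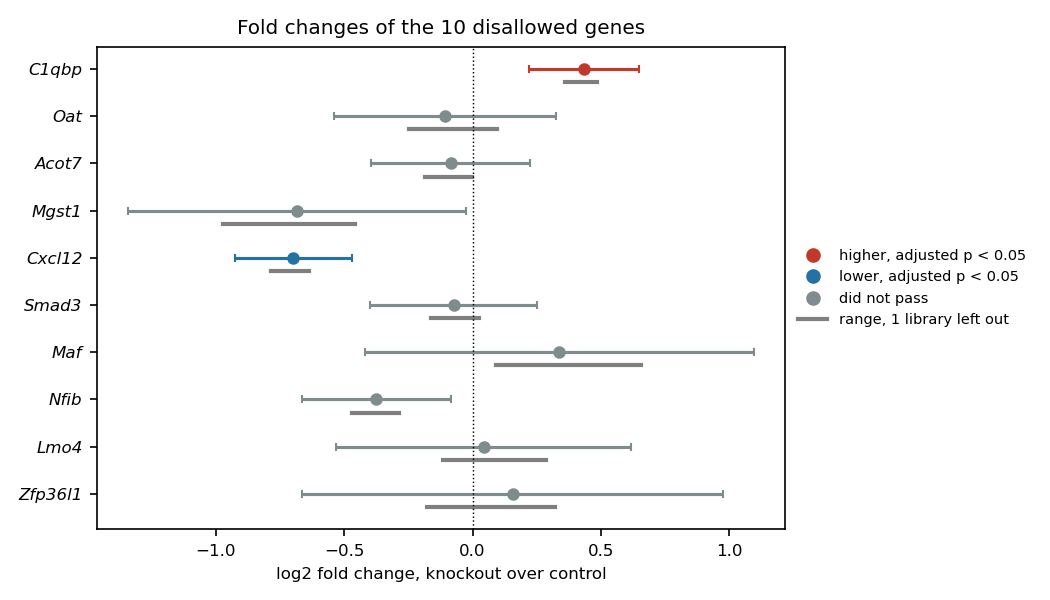
Log2 fold change, knockout over control, of the 10 disallowed genes (points) with 95% intervals from the edgeR fit (thin bars) and the range when 1 library is left out (thick grey bars). The intervals of C1qbp and Cxcl12 lie farthest from 0 for their width, those of Mgst1 and Nfib end near 0 without passing adjustment, and the other 6 cross 0.

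Of the transcription factors, Nfib came closest to a call. Nfib, a nuclear factor I protein, was at 17.4, 15.1 and 18.5 CPM in knockout libraries 4, 5 and 6, against 18.8, 24.6 and 22.7 CPM in control libraries 7, 10 and 16. The groups did not overlap, but the highest knockout library and the lowest control library lay side by side. The log2 difference of Nfib was -0.37 (SE 0.13, edgeR adjusted p = 0.0637), and its 95% interval runs from 0.631-fold to 0.943-fold. Nfib passed without control library 7 (-0.47, adjusted p = 0.0330).

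The other nuclear factor I genes had positive log2 fold changes. Nfix rose (28.6 ± 3.01 CPM in knockout islets, against 19.5 ± 2.54 CPM in control islets, SD, n = 3 each; 0.55, SE 0.12, edgeR adjusted p = 0.0122), as did Nfia (22.8 ± 2.43 CPM in knockout islets, against 16.8 ± 2.43 CPM in control islets; 0.44, SE 0.13). Nfic did not pass (0.24, SE 0.12). The call of Nfia was lost with upper-quartile factors and when knockout library 5, knockout library 6, control library 7 or control library 16 was left out (highest adjusted p 0.110). The difference between Nfib and its relatives was not tested.

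Maf (c-Maf), a large Maf factor known from alpha cells and macrophages, was at 7.49, 2.88 and 6.67 CPM in knockout libraries 4, 5 and 6 and at 4.18, 5.15 and 4.12 CPM in control libraries 7, 10 and 16. The knockout libraries lay on both sides of the control range, and they differed 2.60-fold from lowest to highest where the control libraries differed 1.25-fold. Its log2 difference was 0.34 (SE 0.33, edgeR adjusted p = 0.496), with a 95% interval from 0.748-fold to 2.14-fold. Without knockout library 5 it was 0.66 (adjusted p = 0.0562).

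Among the 5 other Maf factors tested, Maff, a small Maf without an activation domain, fell (5.31 ± 1.30 CPM in knockout islets, against 9.76 ± 1.19 CPM in control islets, SD, n = 3 each; -0.87, SE 0.20, edgeR adjusted p = 0.0138). Mafg also passed with all libraries (-0.23, SE 0.07, edgeR adjusted p = 0.0455), a call lost with any 1 library left out, by DESeq2, by limma-voom and with no filter on low counts. Mafa, the large Maf of beta cells, did not pass, with 115 ± 21.2 CPM in knockout islets, against 95.5 ± 9.95 CPM in control islets (0.27, SE 0.14). Alpha cell markers summed to 26787 to 35512 CPM in the knockout and 37896 to 51006 CPM in the control, with 2 of 8 lower (Irx1 and Slc7a2), a count that was 3 with control library 10 left out and 1 with knockout library 4 or 6 or control library 7 or 16 left out.

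Lmo4, a LIM-only adaptor that binds Ldb cofactors and thereby competes with LIM-homeodomain factors, was at 5.83, 3.28 and 6.35 CPM in knockout libraries 4, 5 and 6 and at 5.16, 5.25 and 4.53 CPM in control libraries 7, 10 and 16. As with Maf, knockout library 5 lay below and the other 2 above every control library. For Lmo4 the log2 difference was 0.04 (SE 0.25, edgeR adjusted p = 0.921), with a 95% interval from 0.692-fold to 1.54-fold. Of 10 other LIM-only, Ldb and associated genes tested, the Ldb partners Ssbp2 (0.35, SE 0.11) and Ssbp3 (0.28, SE 0.07) rose. Ldb1 (-0.21, SE 0.06) fell and 7 did not pass. Across all genes tested 11.8% were called higher and 12.6% lower, so these counts lie near the shares among genes at large. With any 1 library left out Ldb1 and Ssbp2 missed the threshold, as did Ldb1 by DESeq2, by limma-voom and with no filter, and Ssbp2 with upper-quartile factors or no robust estimation. Ssbp3 missed it when knockout library 5, control library 7 or control library 10 was left out.

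Zfp36l1, an RNA-binding protein that sends mRNAs with AU-rich elements to decay, was at 28.3, 26.5 and 50.5 CPM in knockout libraries 4, 5 and 6 and at 37.3, 34.7 and 21.8 CPM in control libraries 7, 10 and 16. Knockout library 6 was the highest and control library 16 the lowest of the 6, and the groups overlapped. The difference in log2 was 0.16 (SE 0.33, edgeR adjusted p = 0.770), with a 95% interval from 0.631-fold to 1.97-fold.

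Its relative Zfp36, a decay factor that early response signals induce, fell (27.5 ± 2.37 CPM in knockout islets, against 45.0 ± 4.60 CPM in control islets, SD, n = 3 each; -0.72, SE 0.10, edgeR adjusted p = 0.00154). Of the mRNA-stabilising Elavl proteins, Elavl4 rose (90.5 ± 11.1 CPM in knockout islets, against 51.0 ± 1.85 CPM in control islets; 0.83, SE 0.09) and Elavl2 fell (-1.09, SE 0.23). The other 7 of 10 genes of this group that were tested did not pass, and leaving out any 1 library kept these 3 calls. Across all genes tested 24.4% were called in either direction, and 3 of 10 is close to that share.

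**Figure D3:**
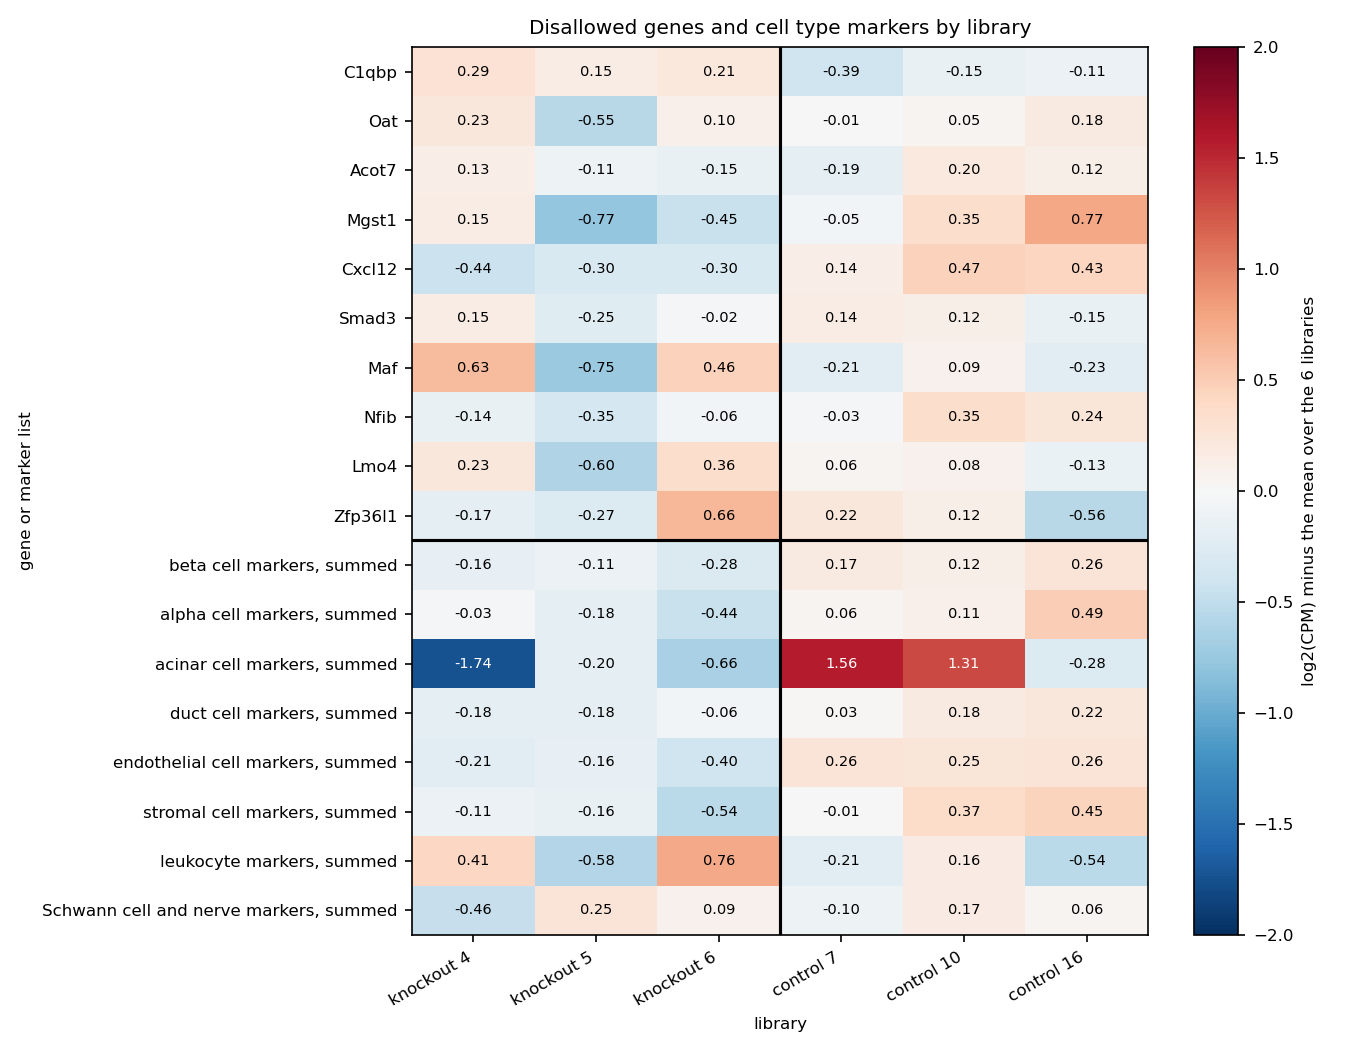
Log2 CPM of the 10 disallowed genes (top) and of the summed CPM of 8 marker lists (bottom) in each library, minus the mean of that row over the 6 libraries; red is above and blue below that mean. Knockout library 5 is at -0.75 for Maf, -0.60 for Lmo4 and -0.55 for Oat, and leukocyte markers are at -0.58 there.

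The coefficient of variation was larger between knockout than between control libraries for 6 members and smaller for 4 (C1qbp, Acot7, Cxcl12 and Nfib). It was 43.3% in knockout and 12.9% in control libraries for Maf. For Lmo4 it was 31.8% in knockout and 7.90% in control libraries, and for Oat 26.6% in knockout and 6.77% in control libraries. Knockout library 5 was the lowest of the 6 libraries for 6 members, Oat, Mgst1, Smad3, Maf, Nfib and Lmo4, and the highest for none. How often these 2 patterns occur over all genes tested was not computed, so they are not shown to be particular to the members. Leukocyte markers summed to 335, 169 and 426 CPM in knockout libraries 4, 5 and 6 and to 218, 281 and 174 CPM in control libraries 7, 10 and 16, so knockout library 5 was lowest there too, and 1 of 12 (Cd14) fell, a count that was 3 with knockout library 4 left out and 0 with knockout library 5 or 6 or control library 10 or 16 left out. The share of counts from Rn45s, the ribosomal RNA precursor, was 0.325% in knockout library 5, 2.56% and 3.58% in the other 2 knockout libraries, and 0.396% to 1.69% in the control libraries. The part of either in the members' values was not tested. Duct markers summed to 329 to 358 CPM in the knockout and 382 to 437 CPM in the control, with 5 of 8 lower. With 1 library left out, 5 were lower for knockout library 5, 3 for control library 10 and 4 for any other. Schwann cell and nerve markers summed to 66.0 to 108 CPM in the knockout and 84.8 to 102 CPM in the control. Of these 8, 2 were higher and 2 lower. The number higher stayed 2 only with knockout library 6 left out. It was 0 without control library 10 and 1 without any other library.

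Low is relative for these genes in whole islets. Per kilobase of merged exons (GENCODE M21), the members' mean levels ran from 0.689 for Maf to 12.7 CPM per kilobase for C1qbp in the knockout and from 0.544 for Maf to 10.4 CPM per kilobase for Zfp36l1 in the control. Among 13355 tested genes with a length, Maf stood at the 14.4th percentile in the knockout and the 10.9th in the control, and C1qbp at the 77.0th in the knockout and the 69.6th in the control. In the knockout the order of levels per length was C1qbp, Zfp36l1, Oat, Acot7, Cxcl12, Mgst1, Smad3, Lmo4, Nfib and Maf. In the control it was Zfp36l1, C1qbp, Oat, Acot7, Cxcl12, Mgst1, Smad3, Nfib, Lmo4 and Maf. The ranges of control libraries overlapped between Zfp36l1, C1qbp and Oat, between Acot7 and Cxcl12, and between Nfib and Lmo4. Those of knockout libraries overlapped between C1qbp and Zfp36l1, Zfp36l1 and Oat, Oat and Acot7, Mgst1 and Smad3, Smad3 and Lmo4, and Lmo4 and Nfib. Within each library the order can still hold. Acot7 lay above Cxcl12 in every control library, and Smad3 above Lmo4 in every knockout library. The other overlapping pairs changed order between libraries of the group. Differences between genes were not tested. Exons of Zfp36l1 and of Maf overlap a non-coding gene on the other strand in that annotation, and such reads could not be told apart, since it is not known whether the counting used strand.

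Other disallowed genes included larger changes. Of 18 tested, 3 rose, 4 fell and 11 did not pass, with a median log2 fold change of -0.16. Among all genes tested 11.8% were called higher and 12.6% lower. The rises were Ldha, lactate dehydrogenase, Arap2, a regulator of small GTPases, and Igfbp4, which binds insulin-like growth factors. Ldha averaged 104 ± 9.05 CPM in knockout islets, against 20.0 ± 3.34 CPM in control islets (SD, n = 3 each; log2 fold change 2.38, SE 0.13). Arap2 averaged 22.8 ± 2.72 CPM in knockout islets, against 9.99 ± 1.75 CPM in control islets (SD, n = 3 each; 1.19, SE 0.15). Igfbp4 averaged 68.4 ± 14.5 CPM in knockout islets, against 38.3 ± 0.861 CPM in control islets (SD, n = 3 each; 0.84, SE 0.14). Leaving out any 1 library kept each of these 3 calls. The falls were Igf1 (-0.81), the transglutaminase Tgm2 (-0.79), Ndrg2 (-0.46) and the Hippo pathway factor Yap1 (-0.45), named here after their values were seen. Of these Tgm2 passed whichever library was left out, and it was the only one of the list to fall when knockout library 5, knockout library 6, control library 10 or control library 16 was left out. With all libraries DESeq2 did not call Yap1 and limma-voom did not call Ndrg2, so each tool had 3 that fell.

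Fits with a marker level as a covariate called fewer genes of several related lists, as they did over all genes. With the acinar level, 3 TGF-beta pathway genes fell (Tgfb3, Tgfbr1 and Skil), 1 glutathione gene rose (Gstm1) and 1 fell (Gstz1), and of the other disallowed genes 2 rose (Ldha and Arap2) and 2 fell (Tgm2 and Igf1). With the endothelial and stromal level, Glul (-1.40), Zfp36 (-1.07) and Ldha (2.75) were the related genes that passed.

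**Figure D4:**
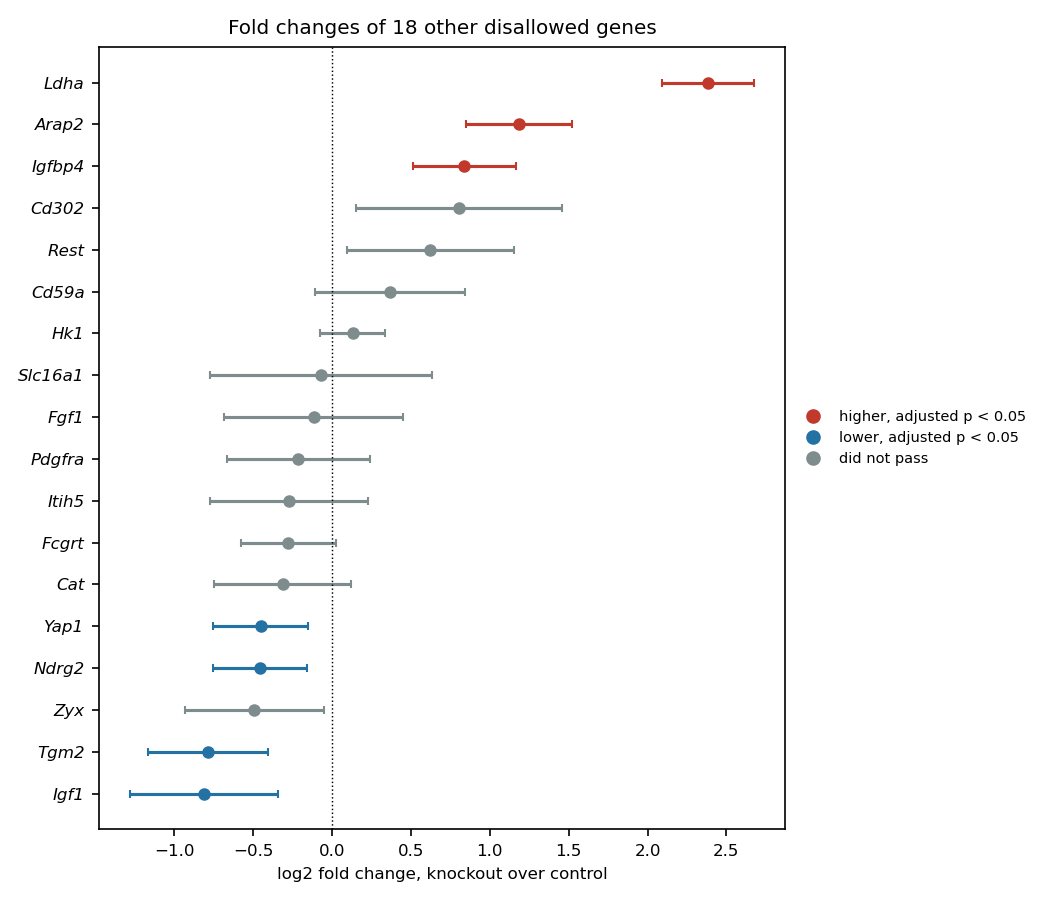
Log2 fold change, knockout over control, with 95% intervals for 18 other disallowed genes, ordered by value; red and blue mark an adjusted p under 0.05 by edgeR. Ldha stands above the rest, followed by Arap2 and Igfbp4, and 4 genes fell.

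In the authors' deposited table, made with DESeq, C1qbp and Cxcl12 were also the members with an adjusted p under 0.05. Of the genes with an adjusted p there, 6.66% were called higher and 6.19% lower. The log2 ratios of the other 8 members there ran from -0.68 for Mgst1 to 0.35 for Maf, with adjusted p-values from 0.147 to 1.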

How the data were processed

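Islet RNA from 3 knockout and 3 control samples was sequenced as single-end TruSeq libraries, per the labels' protocols. Gene counts were deposited by the authors as whole numbers, 1 file a library. Their own comparison table was deposited with a mean scaled count per group (a signal), a ratio (fold change), its log2 value, p-values and adjusted p-values. The submitters' processing notes name build mm9 and the tools TopHat2 2.1.0, bcl2fastq 1.8.4, DESeq and Cufflinks 2.0.2. The counter, annotation and strand setting behind the counts were not given in the sources used here.

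Samples were grouped by title. Counts were analysed with edgeR 4.0.16 in R 4.3.3: filterByExpr (minimum count 10, total 15) kept 14770 of 23284 genes, TMM factors scaled the libraries, and the groups were compared by the robust quasi-likelihood F test, with p-values adjusted over all genes by Benjamini and Hochberg and a threshold of 0.05. Intervals are 95%. Alternatives were DESeq2 1.42.0, limma-voom (limma 3.58.1), upper-quartile factors, no filter, no robust estimation, marker levels as covariates and leaving out each library. Simulated counts covered 14770 genes, where differences were planted at 1.5-fold in 100 and at 2-fold in 100. From these edgeR recovered 36% at 1.5-fold and 71% at 2-fold, and 13.0% of its calls were false. DESeq2 recovered 44% at 1.5-fold and 75% at 2-fold, with 23.2% of its calls false. For limma-voom the values were 26% at 1.5-fold, 67% at 2-fold and 7% of calls false. Each of these false shares was above what the threshold of 0.05 aims at. Such rates depend on the share of genes that differ. The real comparison called 24.4% of genes in either direction, a larger share than was planted, so its own rates are not known from this simulation. Among the members, counting noise is largest for Maf, Lmo4 and Mgst1, with as few as 43, 49 and 47 counts in a library.

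The members and gene lists were chosen with earlier results of these data known. Counts of called genes in any list are to be read beside 11.8% higher and 12.6% lower over all genes tested. No list was tested as a set. The genes named were the 10 members, Neurod1, and of each related list up to 3 that passed with the smallest p, or the one with most counts, and others where the text counts 5 or fewer. Arg2, Otc, Acot3, Acot4, Acot5, Acot12, Mgst2, Ltc4s, Zfp36l3, Nrl and Isl2 had too few counts to be tested, and Slirp and Adgre1 were not matched by symbol.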

Additional observations from a re-analysis of the deposited data

How the results depend on the processing

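C1qbp stayed higher and Cxcl12 lower, both past the threshold, under the 11 alternatives without a covariate (DESeq2, limma-voom, upper-quartile factors, no filter, no robust estimation and 6 single libraries left out). When the level of the acinar markers was a covariate, 0 members were higher (C1qbp fell short) and 2 lower (Mgst1 and Cxcl12), and over all genes 872 were higher and 718 lower. With the endothelial and stromal marker level, 0 members were higher and 0 lower, and over all genes 214 were higher and 198 lower. Both fits have 1 residual degree of freedom less and a covariate that moves with genotype. Leaving out 1 library gave 1 higher and 1 to 2 lower members, and 1153 to 1590 genes higher and 1225 to 1433 lower against 1736 and 1864 with all. Signs turned for members that did not pass: Lmo4 by limma-voom (-0.027), with the acinar level (-0.14), with the endothelial and stromal level (-0.47) and between libraries left out (-0.12 to 0.29); Maf with the acinar level (-0.18); with the endothelial and stromal level Acot7 (0.39), Mgst1 (0.22) and Zfp36l1 (-1.19); and with 1 library left out Oat (-0.25 to 0.10), Smad3 (-0.16 to 0.026) and Zfp36l1 (-0.18 to 0.32). The cause was not tested. No scaling moved the median of all genes by over 0.1. No paired analysis was possible because the groups share no replicate number. Maf, Lmo4 and Mgst1 had under 100 counts in a library, and the part of depth in their spread was not tested. Zfp36l1, with 317 counts or more in each library, had an SE of 0.33, like Maf.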
